A study of Homo sapiens with 6 samples.

Results

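Gene counts were examined for protein-coding genes that lie around CYP24A1 on the long arm of human chromosome 20, in the band 20q13. The genes were chosen by name: PFDN4, ZNF217, DOK5, TSHZ2, BCAS4, NFATC2, CSTF1 and AURKA. Of these 8 genes, 5 had an entry among the 19201 of the count table, namely PFDN4, ZNF217, BCAS4, CSTF1 and AURKA, and all 5 passed the filter on low counts. DOK5, TSHZ2 and NFATC2 were not analysed here. All libraries came from H1299 cells, a cell line derived from a human non-small cell lung carcinoma. There were 3 libraries of H1299 in which the long non-coding RNA lncBCAS1-4_1 was overexpressed (OE) and 3 of wild-type H1299 (Ctrl). The labels name no vector, clone or treatment for either group, so the effects of the RNA and of the procedure that overexpressed it cannot be told apart. The question was whether genes of the stretch of chromosome that holds CYP24A1 and the BCAS genes differed with the overexpression.

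The band 20q13 is often gained or amplified in carcinomas, and several of its genes have been studied as candidate drivers of that gain. ZNF217 is a zinc finger protein that works with the CoREST and CtBP corepressors, and AURKA is a kinase that matures centrosomes and builds the mitotic spindle. PFDN4 is a subunit of prefoldin, which hands unfolded actin and tubulin to the chaperonin CCT. CSTF1 is the WD-repeat subunit of the cleavage stimulation factor, which helps to form the 3′ ends of messenger RNAs. BCAS4 was named as a sequence amplified in breast carcinoma, and its function is less well defined.

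Total counts ran from 84531039 to 90102655 in the OE libraries and from 87393887 to 92780032 in the Ctrl libraries. Levels are CPM, counts per 1e6 counts of the TMM-scaled library size, and fold changes and p-values come from edgeR's quasi-likelihood test over 19101 entries with Benjamini-Hochberg adjustment. The labels do not say whether the replicates were separate cultures, so p-values measure the spread between these libraries only, which may be technical. Of 9 markers of carcinoma and lung epithelium 5 were tested, and they summed to 1678 to 1891 CPM in OE and 1262 to 1429 CPM in Ctrl, nearly all of it from KRT18 and KRT8. KRT19 and the lung factor NKX2-1 were at 0.170 and 0.431 CPM in OE and 0.184 and 0.674 CPM in Ctrl, and EPCAM, NAPSA, SFTPB and SFTPC were not among the entries tested. Of 5 leukocyte markers 2 were tested, and they summed to 79.3 to 88.0 CPM in OE and 69.8 to 74.2 CPM in Ctrl, nearly all of it from CD68. The endothelial markers tested, 3 of 4, summed to 1.05 to 1.73 CPM in OE and 0.976 to 1.71 CPM in Ctrl. The fibroblast markers tested, 3 of 5, summed to 2.26 to 3.58 CPM in OE and 2.16 to 3.06 CPM in Ctrl. All 13 messenger RNAs of the mitochondrial genome, which can also follow RNA quality, fell, and their sum was 8117 to 8830 CPM in OE against 12940 to 14780 CPM in Ctrl. Their part in the results was not tested. Across 10069 entries with a mean log2 CPM above 3, the fold change followed the GC content of the transcript (Spearman 0.72 across genes, which are not independent replicates). Each result is therefore given both as fitted and with per-library offsets for GC content and transcript length, called the correction below. The offsets also take up any difference between OE and Ctrl that runs with GC content or length. Whether that part is technical or a response of the cells cannot be told apart here, so neither fit is taken as the truer.

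CYP24A1, the mitochondrial enzyme that breaks down active vitamin D, stood far apart from its neighbours. It had 2513, 3587 and 2623 CPM in OE libraries 1 to 3, against 0.909, 0.602 and 0.824 CPM in Ctrl libraries 1 to 3, a log2 fold change of 11.87 (SE 0.21). No entry for the overexpressed RNA itself or for BCAS1 was analysed here. Whether reads of the overexpressed RNA were counted under CYP24A1 was not tested. Among the 5 neighbours, BCAS4 rose and ZNF217 and AURKA fell, while PFDN4 and CSTF1 did not pass an adjusted p of 0.05. That is 3 of 5 called, beside 38.0% of all entries tested, of which 18.3% were higher and 19.7% lower. After the correction 2 of 5 were called, CSTF1 as higher and AURKA as lower, beside 22.8% of all entries. None of the 5 reached the study's own cut-offs, a fold above 2 or below 0.5 at an unadjusted p under 0.05, which 2.95% of entries did (1.77% higher and 1.18% lower). The median log2 fold change of the 5 was -0.11, and -0.0041 over all entries. After the correction these medians were 0.12 and -0.02, so the sign for the 5 depends on the correction.

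**Figure D1:**
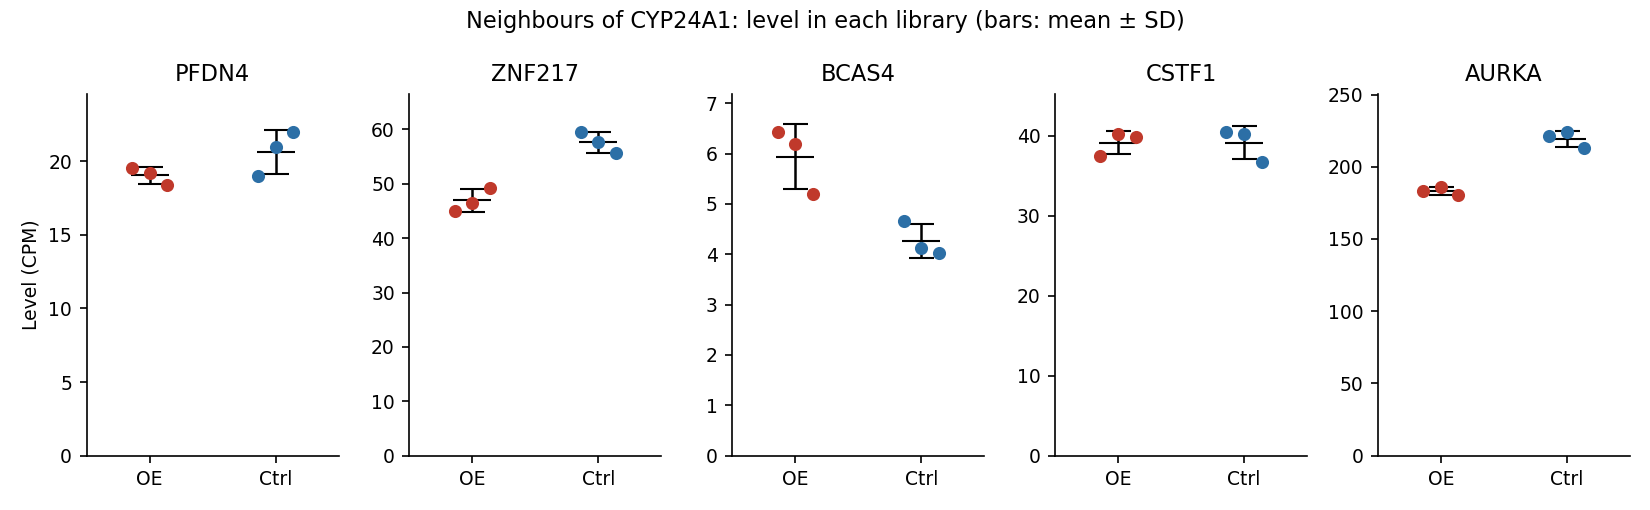
Level of each of the 5 neighbours in CPM in the 3 OE libraries (red, left) and the 3 Ctrl libraries (blue, right), each point a library and each bar the mean ± SD, with every axis starting at 0. The groups do not overlap for ZNF217, BCAS4 and AURKA and overlap for PFDN4 and CSTF1. Over all entries tested, 50.7% do not overlap.

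Levels between genes were compared per kilobase of the canonical transcript. AURKA was the highest of the 5, at 90.2 ± 1.4 CPM per kb in OE and 108 ± 3 CPM per kb in Ctrl (SD, n = 3 each). PFDN4 came next, at 15.5 ± 0.5 CPM per kb in OE and 16.8 ± 1.2 CPM per kb in Ctrl. CSTF1 had 9.71 ± 0.37 CPM per kb in OE and 9.71 ± 0.51 CPM per kb in Ctrl, and ZNF217 had 8.11 ± 0.37 CPM per kb in OE and 9.95 ± 0.34 CPM per kb in Ctrl. CSTF1 and ZNF217 did not overlap in OE, where CSTF1 was the higher, but their ranges overlapped in Ctrl. BCAS4 was the lowest, at 5.33 ± 0.58 CPM per kb in OE and 3.83 ± 0.30 CPM per kb in Ctrl.

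PFDN4 is the neighbour nearest to CYP24A1. Its start lies 34.1 kb from the CYP24A1 start, and both genes are transcribed away from each other (PFDN4, ENSG00000101132, chromosome 20, 54208087 to 54228052, plus strand, and CYP24A1, ENSG00000019186, 54153446 to 54173986, minus strand, GRCh38 coordinates from GENCODE 44). PFDN4 had 19.6, 19.2 and 18.4 CPM in OE libraries 1 to 3, against 19.0, 20.9 and 22.0 CPM in Ctrl libraries 1 to 3. The groups overlapped, with Ctrl library 1 inside the OE range. The log2 fold change was -0.11 (SE 0.08, 95% interval -0.30 to 0.07, adjusted p = 0.31), so that the interval of the fold ran from 0.813 to 1.05. After the correction it was 0.12 (95% interval -0.16 to 0.40, adjusted p = 0.55). Only 0.0896% of entries had a lower GC content than the 30.7% of the PFDN4 transcript, so the corrected value rests on the edge of the trend.

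Of prefoldin and the chaperonin CCT that it serves, subunits were called in both directions. Of 13 other measured subunits, 3 were higher and 5 lower, and after the correction 2 were higher and 2 lower. That is 61.5% called as fitted and 30.8% corrected, beside 38.0% and 22.8% of all entries. Their median log2 fold change was -0.11 as fitted and -0.0077 after the correction, beside -0.0041 and -0.02 over all entries. PFDN5 rose 1.38-fold, with 178 ± 8 CPM in OE and 129 ± 7 CPM in Ctrl (SD, n = 3 each, adjusted p = 0.00034). On the log2 scale the CCT subunits TCP1 and CCT6A fell by 0.22 and 0.25 (adjusted p = 0.0018 and 0.0022). The prefoldin subunits PFDN1, PFDN2 and PFDN6 had log2 fold changes of -0.11, 0.15 and 0.14 and did not pass. VBP1, also a prefoldin subunit and named after its value was seen, passed as lower (-0.19, adjusted p = 0.023). Its corrected value of 0.05 did not pass. After the correction PFDN5 still passed (0.26), TCP1 (-0.07) and CCT6A (-0.09) did not, and PFDN1 (-0.24) and PFDN6 (-0.17) passed as lower.

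ZNF217 (ENSG00000171940, chromosome 20, 53567071 to 53609907, minus strand) starts 580 kb from CYP24A1 at lower coordinates. It had 45.1, 46.5 and 49.2 CPM in OE libraries 1 to 3, against 59.5, 57.8 and 55.6 CPM in Ctrl libraries 1 to 3. Every OE library was below every Ctrl library, which was so for 26.0% of all entries, while in 24.7% every OE library was the higher, 50.7% in all. The log2 fold change was -0.30 (SE 0.05, adjusted p = 0.0021), a fold of 0.815. After the correction the groups overlapped, unlike those of 40.1% of all entries, with 51.0, 52.3 and 52.4 CPM in OE libraries against 52.9, 51.3 and 52.0 CPM in Ctrl libraries. The corrected log2 fold change was -0.0049 (95% interval -0.08 to 0.07, adjusted p = 0.94), so the call was not kept. Non-coding RNAs on the plus strand overlap the ZNF217 span by 8793 and 1554 bases, and with strandedness not given their reads cannot be told apart from those of ZNF217.

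The corepressor partners of ZNF217 had calls in both directions, with more lower than higher. Of 10 others on the list, 2 were higher and 3 lower, and after the correction 1 was higher and 5 lower, with medians of -0.11 and -0.12. Over all entries 18.3% were higher and 19.7% lower as fitted, and 11.1% and 11.7% after the correction. RCOR1, the CoREST scaffold, fell to 58.9 ± 0.1 CPM in OE, against 81.4 ± 2.7 CPM in Ctrl (SD, n = 3 each, adjusted p = 0.00017). The corepressor CTBP2 fell to 64.6 ± 0.4 CPM in OE, against 85.2 ± 1.7 CPM in Ctrl. Both still passed as lower after the correction, at log2 fold changes of -0.25 and -0.15. The histone deacetylase HDAC2 fell by 0.24 on the log2 scale as fitted and was higher by 0.30 after the correction (adjusted p = 0.00032), so its direction depends on the correction.

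**Figure D2:**
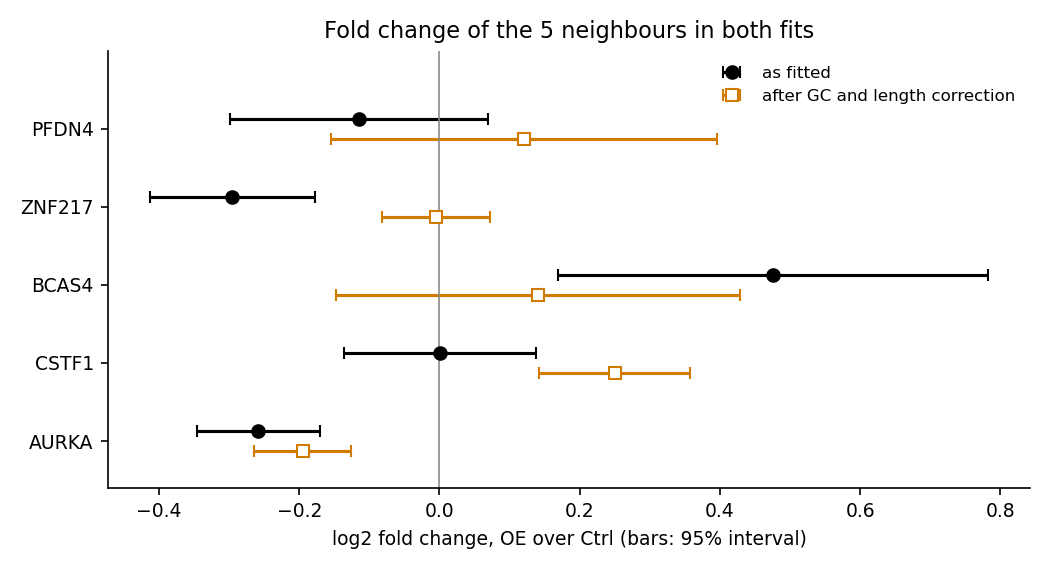
Log2 fold change of the 5 neighbours, OE over Ctrl, with 95% intervals, as fitted (filled circles) and after the correction for GC content and length (open squares). AURKA lies below 0 in both fits, CSTF1 moves from 0.0010 to 0.25, and ZNF217 moves from -0.30 to -0.0049.

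BCAS4 (ENSG00000124243, chromosome 20, 50794894 to 50877177, plus strand) lies 3379 kb from CYP24A1 at lower coordinates and was the neighbour with the fewest counts, 361 to 542 per library. It had 6.42, 6.18 and 5.20 CPM in OE libraries 1 to 3, against 4.66, 4.13 and 4.02 CPM in Ctrl libraries 1 to 3. Every OE library was above every Ctrl library, as in 24.7% of all entries. The fold was 1.39 (log2 fold change 0.48, SE 0.14, adjusted p = 0.021). The call was lost on leaving out Ctrl library 2, Ctrl library 3, OE library 1 or OE library 2 (adjusted p = 0.070, 0.058, 0.077 and 0.066). After the correction the log2 fold change was 0.14 (95% interval -0.15 to 0.43, adjusted p = 0.50), with the groups overlapping.

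BCAS3, another gene named for amplification in breast carcinoma and not a neighbour of CYP24A1 (it lies on chromosome 17), rose 1.43-fold. It had 23.9 ± 1.3 CPM in OE and 16.8 ± 1.1 CPM in Ctrl (SD, n = 3 each, adjusted p = 0.0014), and its corrected log2 fold change of 0.43 also passed (adjusted p = 0.0042). The list of BCAS genes and subunits of BLOC-1, a complex that forms lysosome-related organelles, had 3 of 9 others higher and 2 lower. After the correction these counts were 1 and 1, or 22.2% called against 55.6% as fitted, near the 22.8% of all entries after it and above the 38.0% as fitted. The median log2 fold change was 0.14 as fitted and -0.08 after it. The BLOC-1 subunit SNAPIN rose by 0.26 and BLOC1S6 fell by 0.38 on the log2 scale, and after the correction neither passed (0.08 and -0.04).

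CSTF1 and AURKA form a head-to-head pair 2.2 Mb from CYP24A1 at higher coordinates. AURKA (ENSG00000087586, 56369389 to 56392337) is on the minus strand and CSTF1 (ENSG00000101138, 56392371 to 56406362) on the plus strand, with 33 bases between the annotated spans and 430 bases between the canonical starts. The stretch between the AURKA canonical start and the first CSTF1 start in RefSeq is shown because both genes are transcribed out of it in opposite directions. The ratio of their counts differed between these libraries, as given below. It is given on the plus strand (GRCh38.p14, chr20:56392213-56392378, from the RefSeq promoter window of CSTF1), so CSTF1 begins just after its right end and AURKA begins near its left end and runs to the left. Capitals mark the letters TTTGAA, read here on the minus strand as its reverse complement, and TTTAAA, which reads the same on both strands.
AURKA to CSTF1: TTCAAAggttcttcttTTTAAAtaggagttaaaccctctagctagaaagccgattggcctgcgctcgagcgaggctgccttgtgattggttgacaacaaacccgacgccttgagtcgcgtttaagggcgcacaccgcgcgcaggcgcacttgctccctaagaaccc
TTTGAA and TTTAAA are forms of the cell cycle homology region, an element known from promoters of genes expressed late in the cell cycle. On either strand, TTTGAA was in 15.2% and TTTAAA in 12.2% of 35116 RefSeq windows of 250 bases before to 50 after a start. Other matches to TTTGAA lay in a second CSTF1 window and just past the ZNF217 start, and none to either motif in the windows of PFDN4 or BCAS4. The direct repeat that the vitamin D receptor binds was found on either strand in 0.074% of all windows and in none of the 6 windows of these 4 genes. AURKA and CYP24A1 had no window of their own in the set used, so none was searched for them. Such matches are a description of letters and not of binding.

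AURKA had 183, 186 and 181 CPM in OE libraries 1 to 3, against 221, 224 and 213 CPM in Ctrl libraries 1 to 3. Every OE library was below every Ctrl library, as in 26.0% of all entries. The log2 fold change was -0.26 (SE 0.04, adjusted p = 0.0010), a fold of 0.836 with a 95% interval of 0.787 to 0.889. It passed as lower with any 1 library left out, and after the correction (log2 fold change -0.20, adjusted p = 0.0021). With offsets for GC content alone, a setting added after seeing the data, it was -0.09 and did not pass (adjusted p = 0.078). The AURKA pseudogene entry AURKAP1 held at most 0.326% of the AURKA count in any library. In bulk libraries, fewer cells in a late phase of the cell cycle and less RNA per cell cannot be told apart.

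CSTF1 had 37.5, 40.2 and 39.8 CPM in OE libraries 1 to 3, against 40.4, 40.2 and 36.8 CPM in Ctrl libraries 1 to 3, and the groups overlapped. The log2 fold change was 0.0010 (SE 0.06, 95% interval -0.14 to 0.14, adjusted p = 0.99). After the correction the levels were 41.4, 44.9 and 41.9 CPM in OE libraries against 36.4, 36.3 and 35.0 CPM in Ctrl libraries. These groups did not overlap, which was so for 40.1% of all entries. The corrected log2 fold change was 0.25 (SE 0.05, adjusted p = 0.0054), and it also passed with GC content alone (0.26, adjusted p = 0.0045) and with the correction and any 1 library left out. Among the settings run, CSTF1 was called higher in those with offsets for GC content and in no other.

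The ratio of the AURKA count to the CSTF1 count within a library does not depend on library scaling. It was 4.90, 4.64 and 4.53 in OE libraries 1 to 3, against 5.47, 5.57 and 5.79 in Ctrl libraries 1 to 3. Every OE library was below every Ctrl library. Among single entries 50.7% did not overlap, and the share among ratios of other gene pairs was not computed. The ratio was not among the planned results. The difference in the mean log2 ratio, OE minus Ctrl, was -0.26, with 2.23 ± 0.06 in OE and 2.49 ± 0.04 in Ctrl (SD, n = 3 each). As fitted, AURKA alone was at -0.26 and CSTF1 at 0.0010, so the ratio repeats the AURKA difference and is no further result. The two-sided exact permutation p was 0.10, the smallest that 3 against 3 libraries allow. After the correction the difference was -0.44, again with no overlap. The ratio was lower in these OE libraries, and its size depended on the correction. It does not show that either gene stayed the same.

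**Figure D3:**
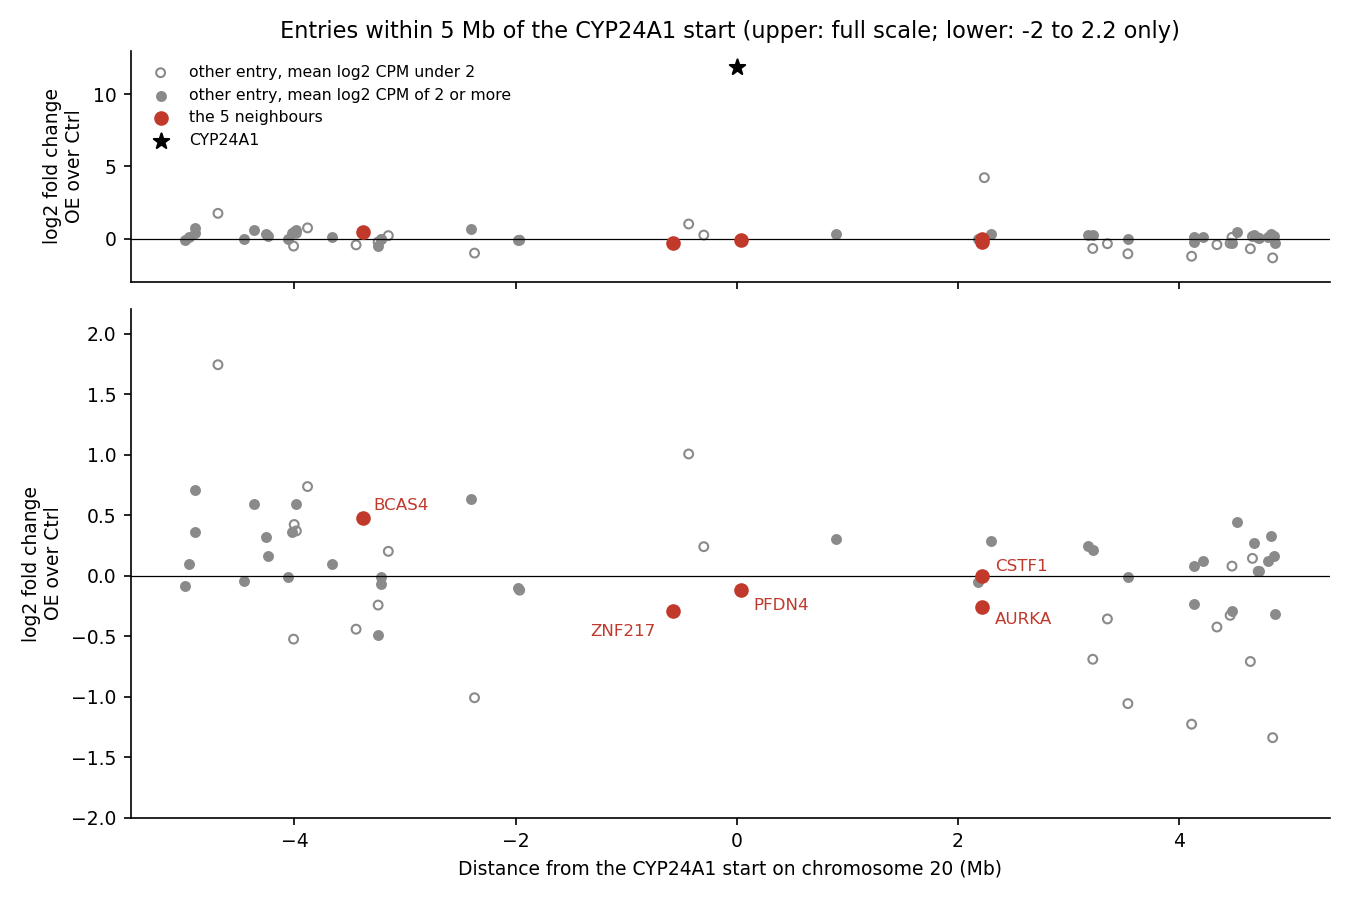
Log2 fold change, OE over Ctrl, of entries within 5 Mb of the CYP24A1 start against their distance from it in Mb. The upper panel shows the full scale, with CYP24A1 at 11.87, and the lower panel -2 to 2.2, with other entries in grey (open below a mean log2 CPM of 2). The 5 neighbours (red) lie between -0.30 and 0.48.

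Partners of AURKA that passed the test were mostly lower. Of 19 others on the list of Aurora kinases and spindle proteins, 9 were lower and 1 higher, beside 19.7% lower and 18.3% higher over all entries. After the correction 16 of 19 were lower and 1 was higher, beside 11.7% and 11.1%, and with GC content alone 12 were lower and none higher. The median log2 fold change was -0.12 as fitted and -0.26 after the correction. No test of the list as a whole was made. CKAP5, a microtubule polymerase, fell to 212 ± 9 CPM in OE, against 297 ± 8 CPM in Ctrl (SD, n = 3 each, adjusted p = 0.00016). CEP192, which recruits AURKA to centrosomes, fell to 41.4 ± 2.4 CPM in OE, against 67.3 ± 5.4 CPM in Ctrl (adjusted p = 0.00021). TPX2, which activates AURKA on the spindle, fell to 613 ± 5 CPM in OE, against 770 ± 3 CPM in Ctrl (adjusted p = 0.00025). These 3 also passed as lower after the correction, at log2 fold changes of -0.18, -0.30 and -0.27. NUMA1, the spindle pole protein, was the 1 higher member (log2 fold change 0.17, adjusted p = 0.014, corrected 0.10) and was named after its value was seen. AURKB, the kinase of the chromosomal passenger complex, was at 0.11 on the log2 scale as fitted, which did not pass (adjusted p = 0.098), and passed as lower after the correction (-0.18, adjusted p = 0.0055), so its direction depends on the correction. AURKC was at 0.350 ± 0.176 CPM in OE and 0.224 ± 0.038 CPM in Ctrl and did not pass.

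Partners of CSTF1 in cleavage and polyadenylation had 3 of 15 higher and 5 lower as fitted, and 3 higher and none lower after the correction. The share called was 53.3% as fitted, beside 38.0% of all entries, and the 3 of 15 called after the correction were a share just under the 22.8% of all entries. With GC content alone 2 were higher and 2 lower. The median log2 fold change was -0.11 as fitted and 0.03 after the correction. No other CstF subunit on the list passed after the correction. CSTF3, the scaffold of the complex, fell as fitted (log2 fold change -0.25, adjusted p = 0.021) and was at -0.01 after the correction, which did not pass. CSTF2, the RNA-binding subunit, was at 0.06 and then 0.03, and its autosomal paralogue CSTF2T at -0.11 and then 0.11, none of which passed. Among the other genes on the list, CPSF2 and CPSF6 fell by 0.56 and 0.34 on the log2 scale. Neither passed after the correction (0.0032 and 0.14), while CPSF1 rose 1.25-fold and still passed (0.12).

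**Figure D4:**
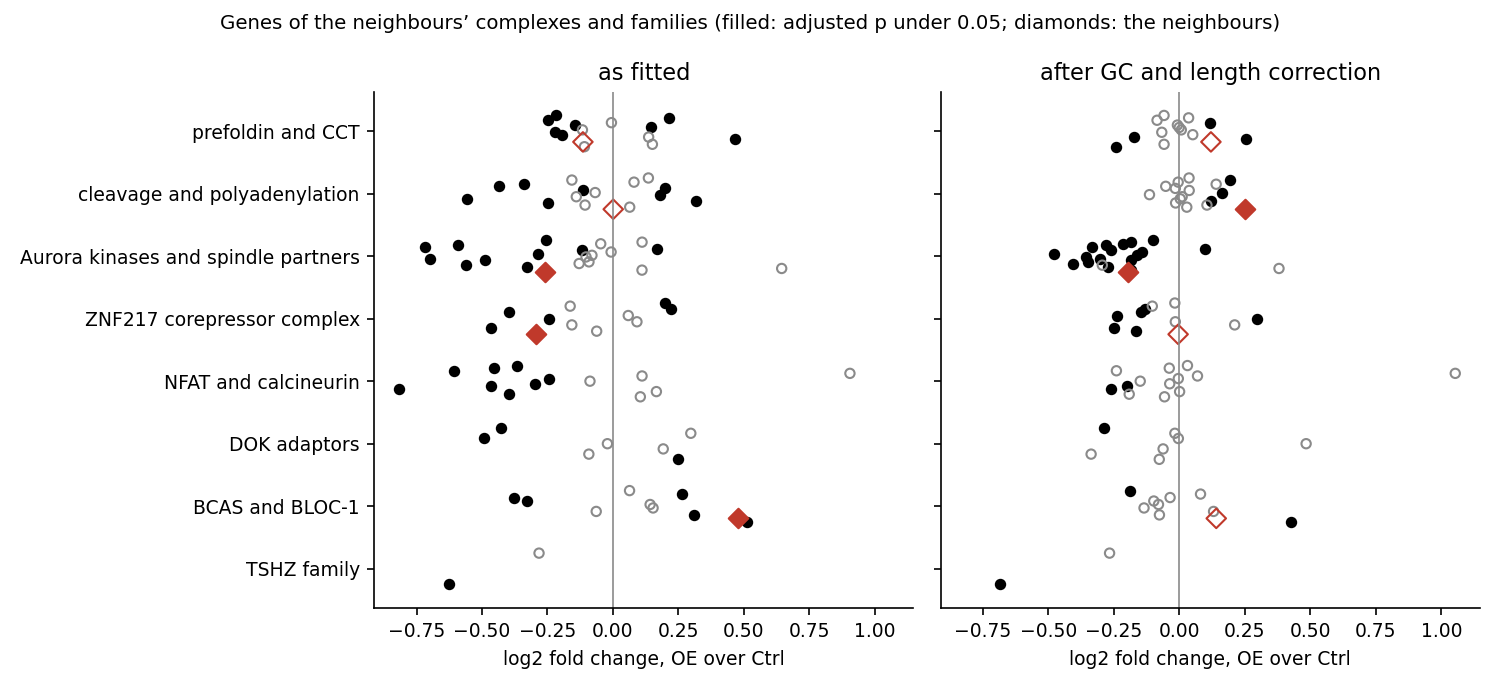
Log2 fold change, OE over Ctrl, of genes from the complexes and families of the 8 named neighbours, as fitted (left) and after the correction (right). Filled points passed an adjusted p of 0.05, open points did not, and diamonds are the neighbours themselves. Of 20 Aurora and spindle genes, AURKA among them, 10 were lower and 1 higher as fitted, beside 19.7% and 18.3% of all entries. After the correction 17 were lower and 1 higher, beside 11.7% and 11.1%, and 9 were lower in both fits.

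NFATC2, TSHZ2 and DOK5 were not analysed here, and relatives are given in their place without standing for them. NFATC2 is one of the calcium-regulated NFAT transcription factors, which calcineurin switches on. Of 13 other genes on a list of NFAT relatives, calcineurin subunits and their regulators, none was higher and 8 were lower. After the correction 2 were lower, NFAT5 and PPP3CA. The median log2 fold change was -0.30 as fitted and -0.04 after the correction. The share called was 61.5% as fitted, beside 19.7% lower and 18.3% higher over all entries, and 15.4% after the correction, near the 11.7% lower over all entries. NFAT5, the tonicity-responsive relative, fell to 35.3 ± 4.0 CPM in OE, against 62.3 ± 5.9 CPM in Ctrl (SD, n = 3 each, adjusted p = 0.00032, corrected log2 fold change -0.26). PPP3CA, a catalytic subunit of calcineurin, fell by 0.47 on the log2 scale, and by 0.20 after the correction. NFATC3 fell as fitted (log2 fold change -0.40, adjusted p = 0.0032) but not after the correction (-0.19, adjusted p = 0.071), and GSK3B, a kinase that exports NFAT from the nucleus, fell by 0.37 but not after it (0.03). NFATC1 and NFATC4 had log2 fold changes of 0.10 and 0.17 and did not pass.

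TSHZ1, a teashirt zinc finger relative of TSHZ2, fell to 10.5 ± 1.1 CPM in OE, against 16.3 ± 0.5 CPM in Ctrl (SD, n = 3 each, adjusted p = 0.0015). Its log2 fold change was -0.63 as fitted and -0.69 after the correction, which also passed. TSHZ3 was at 2.65 ± 0.94 CPM in OE and 3.22 ± 0.75 CPM in Ctrl and did not pass. Among relatives of DOK5, an adaptor of receptor tyrosine kinases, 1 of 7 was higher and 2 were lower, and after the correction 1 was lower, with medians of -0.02 and -0.06. The share called, 42.9% as fitted and 14.3% after the correction, was near or under the 38.0% and 22.8% of all entries. DOK1 rose 1.19-fold as fitted but not after the correction (-0.08). IRS1, the insulin receptor substrate, fell by 0.43 on the log2 scale and still passed after the correction (-0.29), while the adaptor FRS2 fell by 0.49 and did not (-0.0041). DOK3, DOK4 and DOK6 had log2 fold changes of -0.09, 0.19 and -0.02 and did not pass.

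**Figure D5:**
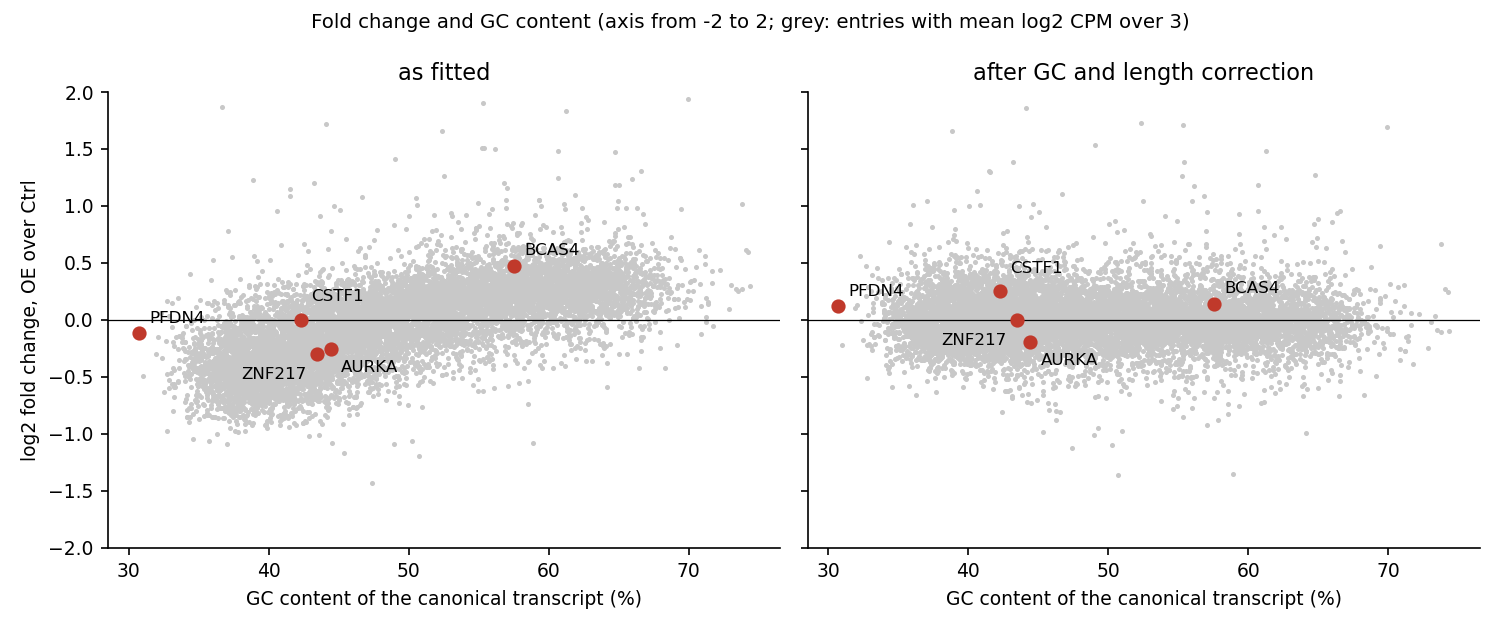
Log2 fold change, OE over Ctrl, against the GC content of the canonical transcript in percent, as fitted (left) and after the correction (right). Grey points are entries with a mean log2 CPM above 3 and red points the 5 neighbours; the axis is limited to -2 to 2. As fitted, AURKA (-0.26), ZNF217 (-0.30) and PFDN4 (-0.11) lie below 0, BCAS4 (0.48) lies above it and CSTF1 is at 0.0010. After the correction AURKA is at -0.20, ZNF217 at -0.0049, PFDN4 at 0.12, BCAS4 at 0.14 and CSTF1 at 0.25.

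Entries around CYP24A1 were called in both directions. Within 1 Mb of its start, 5 other entries were tested, and 1, ZNF217, was called as fitted and none after the correction. Besides ZNF217 and PFDN4 these were the pseudogenes SUMO1P1 and RPL12P4 and an unnamed non-coding RNA, ENSG00000287886, at log2 fold changes of 0.24, 0.30 and 1.01 that did not pass (adjusted p = 0.73, 0.16 and 0.53). Within 5 Mb, 14 of 63 entries were higher and 7 lower, which is 33.3% called, beside 36.5% over chromosome 20 without CYP24A1 and 38.0% over all entries. After the correction 16 were higher and 5 lower, again 33.3% called, beside 26.0% over chromosome 20 and 22.8% over all entries. The window of all entry types was thus under the background share as fitted and over it after the correction. Of its 43 protein-coding entries, 13 were higher and 6 lower as fitted and 15 and 4 after the correction, 44.2% called each time. The share of protein-coding entries called elsewhere was not computed. The median log2 fold change was 0.08 within 5 Mb, 0.09 over chromosome 20 and -0.0041 over all entries, and after the correction it was 0.0098, 0.0069 and -0.02. The 2 largest rises among genes with a mean log2 CPM of at least 2 within 5 Mb were those of ZNFX1, an antiviral RNA helicase, and the phospholipid flippase ATP9A. ZNFX1 had 91.9 ± 6.0 CPM in OE and 56.2 ± 1.9 CPM in Ctrl, and ATP9A had 7.45 ± 0.59 CPM in OE and 4.80 ± 0.16 CPM in Ctrl (SD, n = 3 each). Both passed after the correction too, at log2 fold changes of 0.79 and 0.80. The 2 largest falls were those of the chromatin factor ADNP, by 0.49 on the log2 scale, and of PRELID3B, by 0.31. After the correction ADNP still passed (-0.23) and PRELID3B did not (-0.02).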

How the data were processed

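Per the labels' protocols, TRIzol total RNA was sequenced, and the authors' tools were fastp for trimming, HISAT2 for alignment to GRCh38, StringTie and gffcompare for transcripts and edgeR for tests. The kit, strandedness, tool versions and manner of gene counting were not given in the sources used here. Values in the deposited table are raw, unscaled counts per gene.

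Counts were tested with edgeR 4.0.16 (R 4.3.3) by glmQLFTest on group, after TMM. Low entries were removed by filterByExpr at a minimum count of 10 and a minimum total of 15, which kept 19101 of 19201 entries. The SE is the log2 fold change over the square root of F. Transcript length, GC content (known for 99.3% of tested entries) and positions came from GENCODE 44. The correction fitted natural splines with 5 degrees of freedom for GC content and log2 length to each library's deviations, over entries with a mean log2 CPM above 3, and entered them as offsets. Simulated data were used to test the model. DESeq2 1.42.0, limma-voom (limma 3.58.1) and other settings were alternatives.

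The neighbours and gene lists were chosen with earlier results of these data known. Named genes were the neighbours, up to 3 members per list with the smallest p among those called, relatives by symbol, entries within 1 Mb of CYP24A1 and the 2 largest rises and falls within 5 Mb. Counts over the arm 20q were planned but not made, as its boundary was not in the reference used here. Within a group, pairs of libraries had a chi-square of 11.6 to 22.8 per degree of freedom, so they differed by more than counting error. Whether any shared a culture or an RNA preparation cannot be told from this. Depth of 84531039 to 92780032 counts puts each neighbour at 361 counts or more per library.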

Additional observations from a re-analysis of the deposited data

How the results depend on the processing

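Over all entries 3496 were higher and 3754 lower as fitted. With GC and length offsets these were 2129 and 2234, with GC offsets alone 2535 and 2502, and 2808 of the 7250 calls as fitted were kept in direction under GC and length offsets. With 1 library left out they ranged from 2586 to 3439 higher and 2867 to 3730 lower, and with GC and length offsets from 1514 to 1911 and 1455 to 1892. A replicate block gave 2681 and 3014, and with GC and length offsets 1671 and 1687. Same-numbered libraries did not deviate together (r = -0.07, -0.26 and -0.44 for numbers 1, 2 and 3 over 10091 entries). Between different numbers r ran from -0.155 to 0.359. Deviations from means of 3 libraries cannot show whether same-numbered libraries were handled together. The block as fitted changed no call among the 5 neighbours.

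Among the neighbours 1 was higher and 2 lower as fitted. The number higher ranged from 0 to 1 with 1 library left out, and was 0 under the study's fold rule. The number lower was 0 under the fold rule, 0 with GC offsets alone, and 1 with GC and length offsets, with or without the block or any 1 library. PFDN4, at -0.11 as fitted, was 0.12 with GC and length offsets with or without the block, 0.29 with GC alone, and with 1 library left out -0.17 to -0.07 as fitted and 0.017 to 0.24 under the offsets. CSTF1, at 0.0010, was -0.048 with library size alone and ranged from -0.042 to 0.032 with 1 library left out, or 0.21 to 0.27 under the offsets, where it passed each time. ZNF217, at -0.30, ranged from -0.33 to -0.27 with 1 library left out, and from -0.016 to 0.0097 under the offsets. RLE size factors, library size alone, no or a stricter filter, DESeq2 and limma-voom changed no call among the 5. The cause of these differences was not tested. Settings that joined the offsets to a left-out library, and GC alone, were chosen after seeing the data.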

Other observations

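CASS4, a low gene that lies beyond CSTF1 on the same side of CYP24A1, had the highest fold change after CYP24A1 among the entries within 5 Mb and was chosen after its values were seen. It had 14, 24 and 21 counts in OE libraries 1 to 3, against 0, 0 and 3 counts in Ctrl libraries 1 to 3. The ratio of the summed counts, scaled by library size, was 20.9 (exact binomial 95% interval 6.80 to 104, for counting error only), and edgeR's adjusted p was 0.014, or 0.022 after the correction. NKILA, a long non-coding RNA known as an inhibitor of NF-kappa B signalling, lies 3536 kb from CYP24A1 at higher coordinates and was also chosen after its values were seen. It had 26, 35 and 30 counts in OE libraries 1 to 3, against 57, 77 and 68 counts in Ctrl libraries 1 to 3, a fold of 0.481 (adjusted p = 0.021, or 0.016 after the correction). FAM210B, on the other side of AURKA, had 19.2 ± 1.1 CPM in OE and 19.9 ± 2.3 CPM in Ctrl (SD, n = 3 each) and did not pass (log2 fold change -0.05, adjusted p = 0.73).

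By Pearson's r of log2 CPM over the 6 libraries, a description that mixes group and library differences, the entries most like each neighbour lay on other chromosomes. For ZNF217 they were BTAF1 and AMMECR1 (both r = 0.999), with 1700 of 11226 entries above 0.95, and for AURKA TMEM156 and MT-CO2 (both r = 0.997), with 1054 above 0.95. For BCAS4 they were ADH5 and POLDIP2 (both r = 0.99), with 217 above 0.95. For PFDN4 they were MARCHF9 and TNFAIP8L1 (r = 0.98 and 0.97) and for CSTF1 FAM76A and SNX19 (r = 0.99 and 0.96), with 7 and 3 entries above 0.95.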
